A study of Mus musculus with 12 samples.

Results

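The 48 genes described here carry F-box gene symbols and were followed through the differentiation of mouse keratinocytes. They are all symbols of the form Fbxl, Fbxo or Fbxw followed by a digit that occur in at least 1 of the 4 deposited files, out of 10751 symbols in those files. There were 13 Fbxl, 27 Fbxo and 8 Fbxw members, named after leucine-rich repeats, other domains and WD40 repeats beside the F-box. One of the Fbxl symbols, Fbxl12os, is named as an opposite-strand transcript and listed in RefSeq as a transcribed pseudogene, so 47 members encode F-box proteins. RefSeq holds 79 genes with such symbols, of which 32 were in none of the files, among them 15 Fbxw genes of chromosome 9.

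The cells were primary keratinocytes from the epidermis of newborn mice, whose strain and genotype the labels do not give. They were compared at day 4 of a calcium shift (differentiated) and at day 0 (undifferentiated), with 3 anti-m6A immunoprecipitated and 3 input libraries per day. All were grown to passage 3 on 3T3 fibroblasts stopped with mitomycin C, in medium with 15% serum and 0.05 mM calcium. Separate litters or cultures are not named for the replicates, so p-values cover just the spread among these libraries, which may be technical.

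An F-box protein is the part of an SCF ubiquitin ligase that picks the substrate. Its F-box motif binds Skp1, which sits on the scaffold cullin Cul1, while Rbx1 at the other end of the scaffold recruits the ubiquitin-loaded enzyme. The substrates include cyclins, cyclin-dependent kinase inhibitors, Myc, Notch and beta-catenin, which bear on the exit of epidermal cells from the cycle. N6-methyladenosine (m6A) is an internal methylation of mRNA, placed mostly near stop codons and in long exons.

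The values are the authors' own lists and comparisons. No file has a column per library, so values per sample and library depths are unknown here, and the error given with an expression change is the authors' standard error (SE). The methylation table has no SE. The expression table lists a gene only at an adjusted p under 0.05 by DESeq2, so an unlisted gene may have missed that limit or may never have been tested. Fold changes are read as day 4 over day 0. The header does not say so, but of the listed genes with peaks at day 4 only 93.8% had a positive value, against 4.02% of those with peaks at day 0 only. All 7 keratinocyte markers checked were listed in the expression table and had peaks, with mean normalized counts of at least 3145. Of these, 4 were higher and 3 lower at day 4, from a log2 fold change of -0.99 for Itga6 to 4.57 for Krt15 in the authors' deposited table. Of 12 fibroblast or feeder markers, 4 were higher, 1 was lower and 7, Col1a1, Col1a2 and Col3a1 among them, were in no file. The log2 fold changes of the 5 listed fibroblast markers ran from -2.07 for Col6a1 to 4.58 for Col5a1 in the authors' deposited table. Of 8 melanocyte markers 2 were higher, and of 6 immune or endothelial markers 1 was higher and 1 lower. The part of these cell types in the values below was not tested, and in such bulk RNA fewer cells of a type and less RNA per cell cannot be told apart.

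Of the 48 members, 35 were listed in the expression table, 26 higher and 9 lower at day 4. Among all genes tested, 27.1% were called higher and 26.4% lower (53.5% in either direction). Being listed was itself a way into the group of 48, so the counts were also taken over the 38 members with an m6A peak on either day. Of these, 18 (47.4%) were higher, 7 (18.4%) lower and 13 not listed, while of all 7992 genes with a listed peak 31.0% were higher and 34.6% lower. The share listed in either direction was 65.8% of the members with a peak and 65.6% of all genes with a peak. The median log2 fold change of the listed members was 0.56, beside 0.26 over all listed genes. By class, 17 Fbxo members were higher and 4 lower, 7 Fbxl members higher and 4 lower, and 2 Fbxw members higher and 1 lower.

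**Figure D1:**
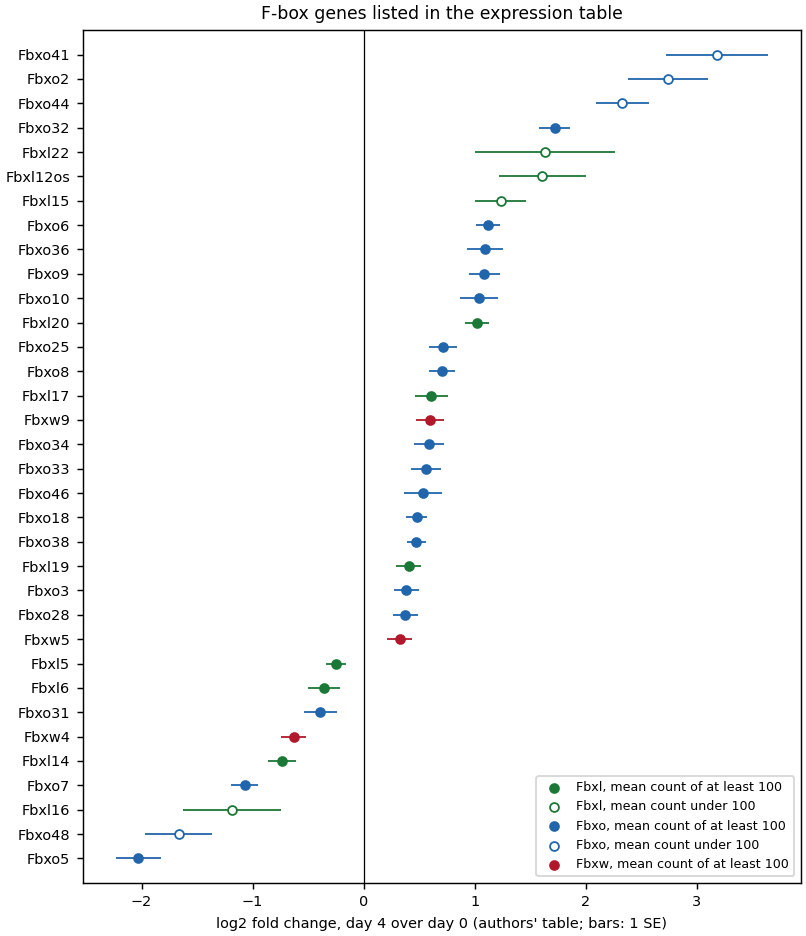
Log2 fold change, day 4 over day 0, of F-box genes listed in the authors' expression table, ordered by size, with 1 of the 35 left out. Bars are 1 SE, colours are the 3 classes and open points are genes with a mean normalized count under 100. The higher genes reach 3.19 (Fbxo41) and the 9 lower genes reach -2.03 (Fbxo5).

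The largest fall was that of Fbxo5, also called Emi1, which holds back the anaphase-promoting complex while cells replicate DNA. It was 4.09-fold lower at day 4 (95% interval from the authors' SE 3.10 to 5.39), with a log2 fold change of -2.03 (SE 0.20, DESeq2 adjusted p = 1.9e-22) in the authors' deposited table. Fbxo5 had no m6A peak listed at day 4, against 2 at day 0, with scores of 13.2 and 9.59. The fall of the transcript and the missing peak cannot be told apart from these lists. Of 7 F-box genes whose symbols fall outside the name rule, 2 were lower, 2 higher and 3 not listed. Among all genes tested, 26.4% were called lower and 27.1% higher. Cyclin F (Ccnf), which carries an F-box and targets replication proteins, stood at -1.83 (SE 0.11) on the log2 scale, and Skp2, the adaptor for the inhibitor p27, at -1.55 (SE 0.18) in the authors' deposited table. Cyclin F and Skp2 each had no peak listed at day 4, against 3 at day 0. For them too, the fall of the transcript and the missing peaks cannot be told apart. Over all genes with peaks, 13.1% had them at day 0 only. Kdm2a, with 6 peaks on each day, and Kdm2b, with 2 on each day, were not listed for expression.

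The start region of Fbxo5 is shown because it is the member with the largest fall, and a script looked there for 2 elements known from cell-cycle promoters. They are CCAAT, the NF-Y element, and TTTGAA, a form of the cell cycle homology region, searched on both strands, where they do not overlap in this window. The stretch is chr10:5805446-5805585, minus strand, from RefSeq on GRCm38.p6, with 120 bases before the annotated start and 20 after it, and capitals mark the matches.
Fbxo5: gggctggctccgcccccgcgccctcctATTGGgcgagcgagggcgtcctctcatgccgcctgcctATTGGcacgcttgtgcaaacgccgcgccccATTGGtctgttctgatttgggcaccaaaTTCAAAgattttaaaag
It holds 3 matches to CCAAT and 1 to TTTGAA. Of 32851 promoter windows of this length, 0.931% hold at least 3 CCAAT matches, 8.10% at least 1 TTTGAA and 0.0700% both. These elements were chosen with the fall of Fbxo5 known, and a match is a description of the letters.

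Other lower members had smaller changes or low counts. Fbxo7, which binds proteasome and cyclin-dependent kinase regulators and whose human gene is mutated in a form of parkinsonism, had a log2 fold change of -1.07 (SE 0.12, DESeq2 adjusted p = 6.2e-18) in the authors' deposited table. In the authors' deposited table Fbxl14, an adaptor for the Snail family of repressors, stood at -0.74 (SE 0.12) on the log2 scale. Fbxw4, a gene at the mouse Dactylaplasia limb locus, stood at -0.63 (SE 0.11) in the authors' deposited table. Closer to the limit of the authors' deposited table were Fbxo31, which targets cyclin D1 (-0.39, SE 0.15, DESeq2 adjusted p = 0.0185), Fbxl6 (-0.36, SE 0.15, adjusted p = 0.0304) and the iron sensor Fbxl5 (-0.25, SE 0.09, adjusted p = 0.0136). The Fbxo31 row carries the Ensembl identifier and description of Fbxo5 beside values of its own, so which gene it measures rests on its symbol. In the authors' deposited table Fbxo48 (-1.67, SE 0.31) had a mean normalized count of 49.8 and Fbxl16 (-1.19, SE 0.44) one of 22.4.

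Fbxo32, also called atrogin-1, is the muscle atrophy adaptor, and its rise had the lowest adjusted p of the family. It was 3.29-fold higher at day 4 (95% interval 2.74 to 3.96), with a log2 fold change of 1.72 (SE 0.14, DESeq2 adjusted p = 3.1e-35) at a mean normalized count of 1507 in the authors' deposited table. Its closest relative by sequence, Fbxo25, had a smaller rise (0.72, SE 0.13, DESeq2 adjusted p = 9.4e-08) in the authors' deposited table. Fbxo30, another muscle atrophy adaptor, was not listed.

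Fbxo2, Fbxo44 and Fbxo6 were each higher, a group put together after the values were seen. Fbxo2 and Fbxo6 bind N-linked sugar chains of glycoproteins sent for degradation from the endoplasmic reticulum, and Fbxo44 shares their sugar-binding-type domain. Fbxo2 was 6.70-fold higher at day 4 (95% interval 4.11 to 10.9), Fbxo44 5.03-fold (3.64 to 6.96) and Fbxo6 2.18-fold (1.88 to 2.52), from the SEs of the authors' deposited table. The DESeq2 adjusted p in the authors' deposited table was 1.6e-13 for Fbxo2, 2.0e-21 for Fbxo44 and 4.5e-24 for Fbxo6. In the authors' deposited table the mean normalized count was 44.8 for Fbxo2, 78.7 for Fbxo44 and 690 for Fbxo6, so the narrowest interval belongs to the smallest change. Fbxo17 and Fbxo27, which also belong to this domain family, were in none of the files.

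These genes are neighbours on chromosome 4. In GRCm38.p6, Fbxo6 spans 148145716 to 148152135, Fbxo44 follows from 148152799 to 148160183, and Fbxo2 from 148160198 to 148166420. Fbxo2 is read from the plus strand and the other two from the minus strand, and 14 bases separate the spans of Fbxo44 and Fbxo2. On the other side 11 bases separate the 3′ end of Fbxo6 from that of Mad2l2, which is on the plus strand. No source used here says whether the authors' counting used strand, so reads that run past these 3′ ends cannot be assigned with certainty. Mad2l2 was not listed in the expression table, and neither were Draxin and Agtrap beyond it. Of the F-box genes of this cluster, Fbxo6 alone had a listed peak, at day 4 only, on chromosome 4 from 148145966 to 148146015 (mm10, score 22.4).

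The 160 bases before a start of each gene are shown because these neighbours moved in the same direction. The start is the outermost one with a sequence in the RefSeq set used here, and the annotated spans of Fbxo44 and Fbxo2 reach further out than it. The windows are on GRCm38.p6, each on the strand of its gene, at chr4:148160508-148160667 (plus) for Fbxo2, chr4:148160095-148160254 (minus) for Fbxo44 and chr4:148152136-148152295 (minus) for Fbxo6. Capitals mark GGGCGG, the Sp1 element, searched on both strands.
Fbxo2: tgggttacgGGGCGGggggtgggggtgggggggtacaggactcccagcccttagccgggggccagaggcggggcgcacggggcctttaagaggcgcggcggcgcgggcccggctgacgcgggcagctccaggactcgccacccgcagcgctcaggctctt
Fbxo44: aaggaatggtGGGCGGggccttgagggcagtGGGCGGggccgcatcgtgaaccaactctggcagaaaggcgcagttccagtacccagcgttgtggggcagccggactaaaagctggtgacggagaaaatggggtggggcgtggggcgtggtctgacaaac
Fbxo6: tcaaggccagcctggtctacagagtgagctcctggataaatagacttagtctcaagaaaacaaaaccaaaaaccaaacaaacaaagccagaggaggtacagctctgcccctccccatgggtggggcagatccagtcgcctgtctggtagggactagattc
There was 1 match for Fbxo2, 2 for Fbxo44 and 0 for Fbxo6, and 29.3% of all promoter windows of this length hold at least 1. Fbxo44 and Fbxo2 face away from each other, with 574 bases between the starts used for these windows.

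The other members that rose at least 2-fold belong to different branches of the family. Fbxo41, a neuronal adaptor, had the largest value of all, 9.10-fold (95% interval 4.88 to 17.0), at a mean normalized count of 26.5 in the authors' deposited table. Fbxl15, which targets the ligase Smurf1 in human cells, had a log2 fold change of 1.23 (SE 0.23) at a mean of 77.3, and Fbxl22, a heart muscle adaptor, one of 1.64 (SE 0.63) at a mean of 10.5 in the authors' deposited table. Fbxo36 (1.10, SE 0.16), Fbxo9 (1.09, SE 0.14), the Bcl2 adaptor Fbxo10 (1.04, SE 0.17) and Fbxl20 (1.02, SE 0.11), which acts on a synaptic protein, had means over 100 in the authors' deposited table. Fbxl12os, named as the opposite-strand transcript of Fbxl12, rose as well (1.61, SE 0.39, mean 25.9) in the authors' deposited table. Fbxl12 itself was not listed there, and its annotated span does not overlap that of Fbxl12os. In all, 12 members rose and 4 fell at least 2-fold, where 11.3% and 9.90% of all genes tested did. Being listed was a way into the group, so the 38 members with a peak were counted as well. Of these, 6 rose and 2 fell at least 2-fold, beside 622 and 847 of all 7992 genes with a listed peak.

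Most remaining rises were modest. In the authors' deposited table, log2 fold changes between 0.5 and 0.75 were, beside that of Fbxo25, those of Fbxo8 (0.70), which carries a domain that activates Arf GTPases, Fbxl17 (0.61), which removes mispaired BTB proteins, Fbxw9 (0.60), Fbxo34 (0.59), Fbxo33 (0.56) and Fbxo46 (0.53). Lower values in the authors' deposited table were those of the DNA helicase Fbxo18 (0.48), Fbxo38 (0.47), an adaptor for the receptor PD-1 in T cells, the CpG island binder Fbxl19 (0.41), Fbxo3 (0.38), Fbxo28 (0.38) and Fbxw5 (0.32). Their SEs ran from 0.08 for Fbxo38 to 0.17 for Fbxo46. Among the 13 members not listed were Fbxw7, the adaptor for cyclin E, Myc and Notch, Fbxw11, an adaptor for beta-catenin, and Fbxo11.

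The m6A peak lists held 83 peaks in 35 members at day 4 and 79 peaks in 36 members at day 0. Peaks were listed on both days in 33 members, at day 4 only in Fbxo6 and Fbxw9, and at day 0 only in Fbxo3, Fbxo5 and Fbxw17. Over all genes with peaks, 7.67% had them at day 4 only and 13.1% at day 0 only. Members carried 2.37 peaks per gene at day 4 and 2.19 at day 0, beside 2.65 and 2.70 over all genes with peaks. There were 11 members with more peaks at day 4 than at day 0, 10 with fewer and 17 with as many. Fbxo30 had the most, 7 at day 4 and 5 at day 0. Counting any overlap of 1 bp or more on the same strand, 67 of the 83 day 4 peaks met a day 0 peak (80.7%, against 78.9% of all day 4 peaks). In the other direction 64 of the 79 day 0 peaks met a day 4 peak (81.0%, against 70.2% of all day 0 peaks). The 10 members in no peak list were Fbxl12os, Fbxl16, Fbxl17, Fbxl22, Fbxo2, Fbxo8, Fbxo9, Fbxo41, Fbxo44 and Fbxo48. Of these, 7 had a mean normalized count under 100, as did 1 of the 25 listed members with a peak.

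**Figure D2:**
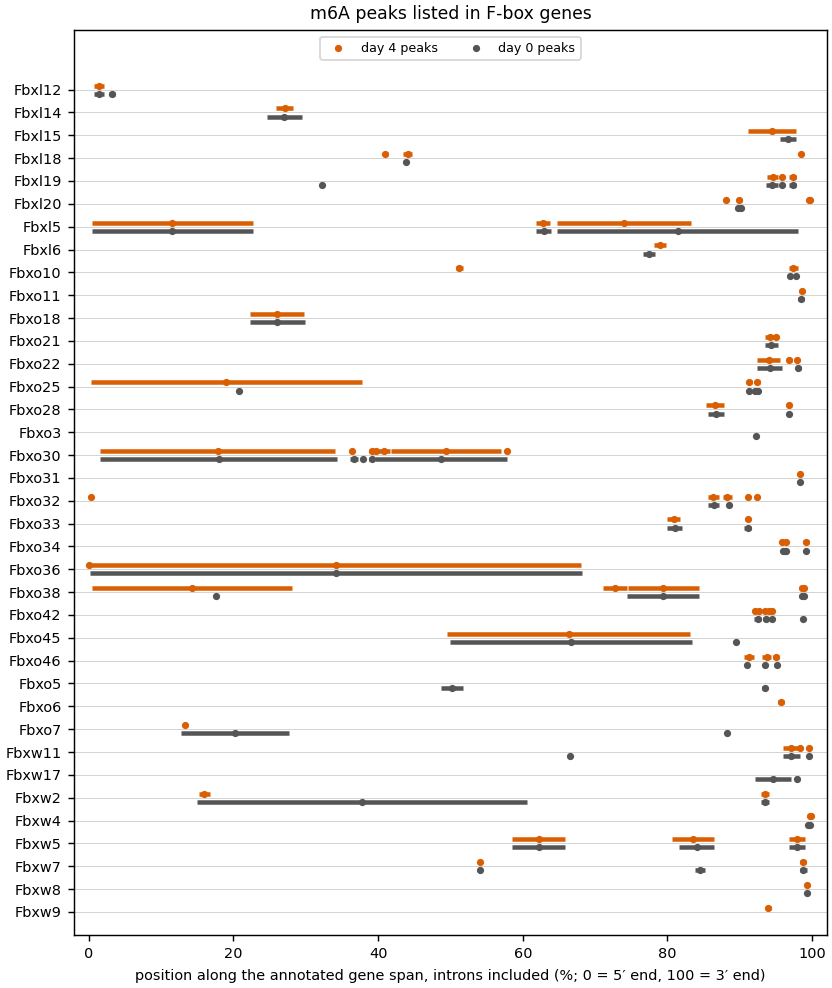
Position of the listed m6A peaks in the F-box genes with peaks, with 1 of the 38 genes left out, along each annotated gene span from the 5′ end (0%) to the 3′ end (100%), introns included, with day 4 above day 0. A bar runs from a peak's start to its end, which can span introns, and the point marks its middle. Most day 4 bars have a day 0 bar below them, and near the 5′ end Fbxo32 has a peak at day 4 alone, while Fbxo36 has a short one at day 4 beside a long one on both days. The long day 4 bars of Fbxo25 and Fbxo38 that begin near the 5′ end have only a short day 0 bar below them, further in.

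The enrichment score is the authors' own value for a peak, its scaling is not stated, and it is used only to rank peaks within a day. Fbxo11, the adaptor for the repressor Bcl6 in B cells, held the strongest peak of the family on both days, ranked 71 of 18423 at day 4 (score 481) and 5 of 19920 at day 0 (score 1869). In mm10 it lay on chromosome 17 from 87991701 to 87992146 at day 4 and from 87991701 to 87992278 at day 0, on the minus strand. The annotated gene spans 87990859 to 88066045, so the peak ended 842 bases before the 3′ end on both days. Next among the members found in peak lists only was Fbxo45, known for its role in mouse neurons, with scores of 348 at day 4 and 488 at day 0. Fbxw7 (133 and 161) and Fbxw11 (126 and 225, each at day 4 and at day 0) followed, with Fbxo42 (65.3) at day 4 and Fbxo21 (148) at day 0 completing the 5 highest of each day.

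Within its list, the median member peak stood at 43.9% from the top at day 4 and at 35.4% at day 0. The highest 5% of day 4 peaks included 4 peaks of members, in Fbxo11, Fbxo45, Fbxl5 and Fbxo31. The highest 5% of day 0 peaks included 6, in Fbxo11, Fbxo32, Fbxo45, Fbxw8, Fbxl15 and Fbxl5. Since the lists differ in length and scale, a shift in rank between them is not a change in methylation. Fbxw17 had 2 day 0 peaks, with scores of 33.0 and 89.7, which end 458 and 309 bases before its annotated 3′ end, and it was listed in no other file.

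The shares of member peaks near gene ends can be read beside those of all peaks. Up to 1000 bp from the annotated 3′ end there were 25 of 83 peaks at day 4 (30.1%, against 31.2% of all placed peaks) and 23 of 79 at day 0 (29.1%, against 29.7%). Within 1000 bp of the 5′ end there were 9 at day 4 (10.8%, against 11.2%) and 5 at day 0 (6.33%, against 9.08%). The exon and UTR annotation was not used here. Of the 5′ peaks listed at day 4, those with no overlapping day 0 peak were 1 in Fbxo32 and 1 in Fbxo36, which also had a long peak starting 100 bases after its 5′ end on both days. An overlap anywhere along a long peak counted. In Fbxo25 a 13140-base day 4 peak from 119 bases in met a day 0 peak 7248 bases in. In Fbxo38 a 12446-base day 4 peak from 170 bases in met a day 0 peak 7835 bases in. Neither Fbxo25 nor Fbxo38 had a day 0 peak within 1000 bp of its 5′ end. The short Fbxo36 peak covered the first 50 bases of the gene, on chromosome 1 from 84839841 to 84839890 (mm10, score 23.3, the authors' unadjusted p = 1.8e-10). The script found 0 matches there to GGAC, the core of the commonest m6A motif, searched on the transcribed strand, where 18.9% of all annotated starts have one in their first 50 bases. Both Fbxo32 and Fbxo36 had higher expression at day 4.

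In the methylation table, 15 sites in 12 members were called at a false discovery rate under 0.05, 10 gains and 5 losses at day 4. Of all sites tested, 6.96% were called (4.79% as gains and 2.17% as losses). How many member sites were tested is not known, so no share of member sites can be set beside these. By gene, 12 members had a called site and 38 a listed peak, beside 2091 and 7992 of all genes. Gains made up 66.7% of the member sites and 68.8% of all called sites. The log base of these changes is not stated. The direction was read from the peaks the sites overlap: sites on day 4 peaks alone were positive in 98.8% of cases, against 24.4% of those on day 0 peaks alone. No member had both gains and losses.

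**Figure D3:**
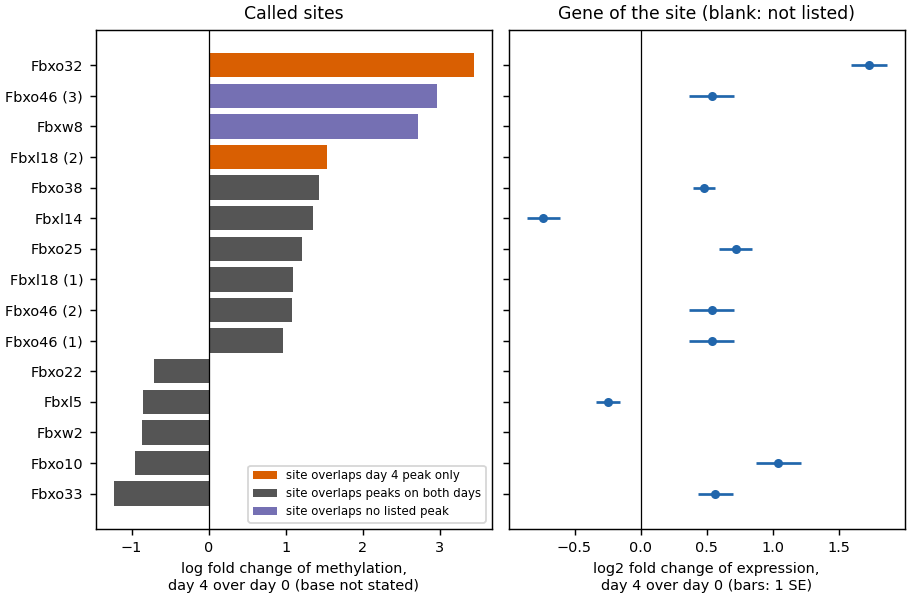
Left, log fold change of methylation (base not stated), day 4 over day 0, of the 15 sites called in F-box genes, coloured by the listed peaks that each site overlaps. Right, log2 fold change of expression of the same gene with 1 SE, blank where the gene is not listed. Fbxo32 has the largest gain (3.44) and Fbxo33 the largest loss (-1.23).

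The largest gain was at the 5′ end of Fbxo32, on chromosome 15 from 58214693 to 58214842 (mm10, minus strand), 50 bases into the annotated gene. The authors' deposited table gives it a log fold change of 3.44 (false discovery rate 4.4e-04), and a peak was listed at the same coordinates at day 4 (score 12.5) and none at day 0. The other peaks of the gene ended between 2944 and 5040 bases before its 3′ end, and the strongest, from 58180919, was listed on both days, with a score of 157 at day 4 and 541 at day 0. Peaks from 58178823 (score 7.21) and from 58179322 (score 11.5) were, like the 5′ peak, listed at day 4 only. Expression of Fbxo32 was higher at day 4, and whether that bears on the peaks listed only then was not tested.

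Fbxo46, a little-studied member, had 3 gained sites on chromosome 7 between 19136090 and 19137422, where the authors' deposited table gives log fold changes of 2.97, 1.08 and 0.96 (false discovery rates 0.0163, 2.0e-05 and 0.00399). Fbxl18 had 2 gained sites, from 142885581 to 142885879 (1.10) and from 142886425 to 142886623 (1.54) on chromosome 5 in the authors' deposited table. Expression was higher at day 4 for Fbxo46 and not listed for Fbxl18.

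The gain with the lowest false discovery rate was in Fbxl14, on chromosome 6 from 119480661 to 119481156, for which the authors' deposited table gives a log fold change of 1.35 (false discovery rate 4.0e-10). It is the one member with a gain whose expression was lower at day 4. Fbxo25 gained over a stretch that starts near its 5′ end, on chromosome 8 from 13907855 to 13921043 (1.21, false discovery rate 8.8e-04), and the authors' deposited table has a like stretch in Fbxo38 (1.44, false discovery rate 0.0281). These stretches are 13189 and 12446 bases long on the genome and may span introns. Fbxw8, which works with Cul7 in the placenta, had a gain of 2.71 (0.0114 as its false discovery rate) on chromosome 5 from 118066673 to 118066722 in the authors' deposited table, outside any listed peak, as was the Fbxo46 site at 19136090.

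All 5 losses overlapped peaks listed on both days. With the false discovery rate second in each pair, they were in Fbxo33 (-1.23, 0.0258), Fbxo10 (-0.95, 0.0250), Fbxw2 (-0.86, 1.4e-05), Fbxl5 (-0.85, 8.0e-05) and the histone demethylase adaptor Fbxo22 (-0.71, 0.00851), each as the authors' deposited table gives it. The Fbxl5 site ran from 43745313 to 43757835 on chromosome 5 and the Fbxw2 site from 34813007 to 34823054 on chromosome 2, and both may span introns. The Fbxo33 site lay on chromosome 12 from 59202403 to 59202652, the Fbxo10 site on chromosome 4 from 45035195 to 45035891 and the Fbxo22 site on chromosome 9 from 55221159 to 55223847. Fbxo10 and Fbxo33 were higher in expression, Fbxl5 lower, and Fbxw2 and Fbxo22 were not listed.

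Setting both tables side by side, 8 of the 12 members with a called site were also listed for expression (66.7%, against 68.1% of all genes with a called site). Of the 7 members with gains, 4 were higher, 1 was lower and 2 were not listed, while of all genes with gains alone 38.2% were higher and 32.5% lower. Of the 5 members with losses, 2 were higher, 1 was lower and 2 were not listed, while of all genes with losses alone 26.5% were higher and 36.6% lower. The tables share the input libraries, so no relation between them was tested.

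Partner genes of the ligase were listed in both directions. Of 36 partner genes, 6 were higher, 9 lower and 21 not listed, where 27.1% of all genes tested were higher and 26.4% lower. The median log2 fold change of the listed partners was -0.30, beside 0.26 over all listed genes. However, 32 of the 36 partners had an m6A peak on either day, and over listed genes with a peak the median was also -0.30. Of all genes with a listed peak, 31.0% were higher and 34.6% lower. The largest rise was that of Skp1a, the gene of the Skp1 protein that links F-box proteins to Cul1. It was 2.02-fold higher at day 4 (95% interval 1.68 to 2.42, DESeq2 adjusted p = 2.0e-13) in the authors' deposited table. The RING subunit Rbx1 (0.68, SE 0.13) and the conjugating enzymes Ube2r2 (0.52, SE 0.10) and Ube2d1 (0.50, SE 0.12) also rose, while the scaffold Cul1 was not listed in the authors' deposited table. The largest falls were those of Glmn (-0.89, SE 0.22), which masks Rbx1, Cops3 (-0.52, SE 0.11), the ubiquitin-activating enzyme Uba1 (-0.45, SE 0.11) and Cops7a (-0.45, SE 0.11) in the authors' deposited table. Of the 10 subunits of the COP9 signalosome checked, which takes Nedd8 off cullins, 4 were lower, 0 higher and 6 not listed. These 10 are among the 36 partners, and the same 26.4% and 27.1% of all genes tested stand beside them. The higher genes outside the name rule were the beta-catenin adaptor Btrc (0.33, SE 0.11) and Lrrc29 (1.07, SE 0.37, mean 27.9) in the authors' deposited table.

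**Figure D4:**
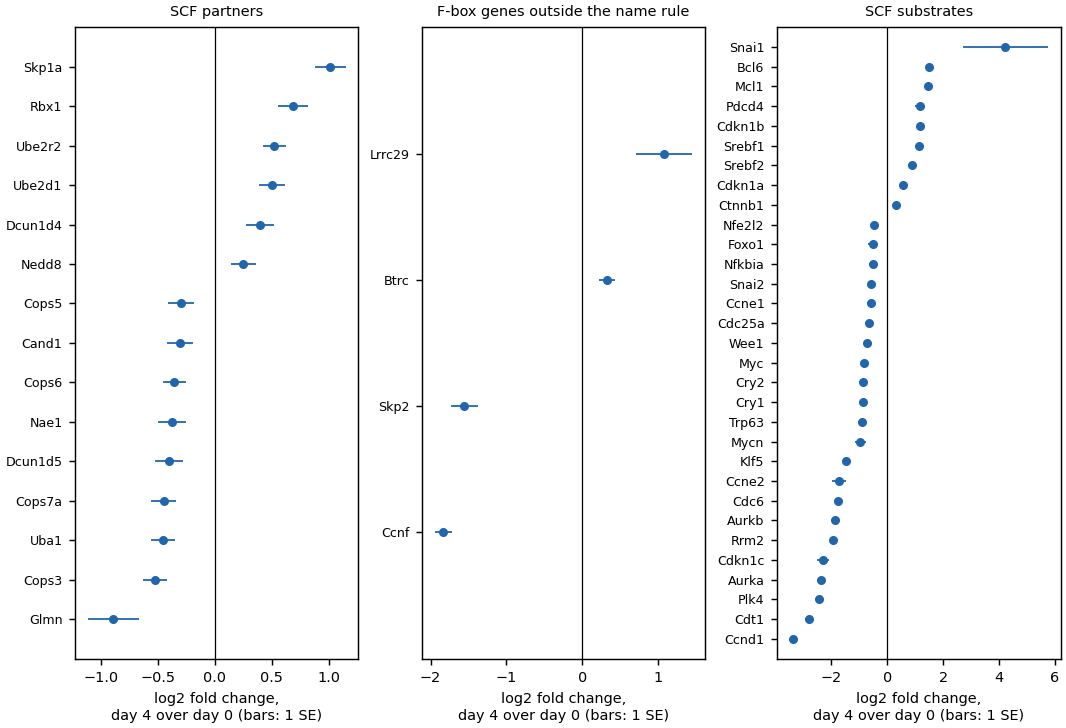
Log2 fold change of expression, day 4 over day 0, with 1 SE, of the listed genes among SCF partners (15 of 36), F-box genes outside the name rule (4 of 7) and SCF substrates (31 of 37). Skp1a leads the partners at 1.01, and Ccnd1 is the lowest substrate at -3.37.

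Of 37 genes whose proteins are known SCF substrates, 22 were lower, 9 higher and 6 not listed, where 26.4% of all genes tested were lower and 27.1% higher. Their median log2 fold change was -0.74 among those listed, beside 0.26 over all listed genes, and the list was made with earlier results known and not tested. Of the 37 substrate genes, 32 had an m6A peak on either day, and the median over listed genes with a peak was -0.30. Of all genes with a listed peak, 34.6% were lower and 31.0% higher. The largest falls were those of cyclin D1, Ccnd1 (-3.37, SE 0.11), a substrate of Fbxo31, the replication licensing factor Cdt1 (-2.81, SE 0.14), the centriole kinase Plk4 (-2.43, SE 0.13) and Aurka (-2.38, SE 0.15) in the authors' deposited table. The largest rises were those of Snai1 (4.22, SE 1.52, mean 2.65), Bcl6 (1.51, SE 0.11), Mcl1 (1.44, SE 0.10) and Pdcd4 (1.16, SE 0.16), an inhibitor of translation, in the authors' deposited table. RNA says nothing of the ubiquitination or half-life of these proteins, which were not measured.

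Some adaptors can be set beside the RNA of their textbook substrates, pairs picked after the values were seen. For Skp2 the substrate genes went apart, with Cdkn1b, the p27 gene, at 1.16 (SE 0.09) and Cdkn1a at 0.55 (SE 0.09) but Cdkn1c at -2.29 (SE 0.22) in the authors' deposited table. Rrm2 (-1.95, SE 0.09) and Cdc6 (-1.75, SE 0.15), substrates of cyclin F, fell with Ccnf itself in the authors' deposited table. Bcl6 rose by 1.51 on the log2 scale while its adaptor Fbxo11 was not listed in the authors' deposited table. Ireb2, the iron regulator that Fbxl5 targets, was not listed for expression while the authors' deposited table gives it a methylation loss of -0.74 (false discovery rate 0.0163), beside the loss of -0.85 in Fbxl5.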

How the data were processed

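Each day has 1 m6A peak list, and the days are compared in a table of expression and a table of methylation. The submitters' processing notes name HISAT2 2.1.0, DESeq2 1.18.1 and the build mm10. No source used here names the peak caller or the methylation test. Per the file headers, the authors gave each peak an enrichment score and an unadjusted p-value, and each listed gene a mean normalized count (a signal over the compared libraries), a log2 fold change, its SE, and p-values raw and adjusted. The deposited methylation sites have a log fold change of unstated base, treated as a score, with p-values and false discovery rates. No source used here says how replicates were joined.

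The files used here have no column per library, so no test was run, and the numbers tested (14924 genes and 36796 sites) were derived from the authors' adjusted and raw p-values. Intervals of 95% are normal intervals from the authors' SE on the log2 scale. Ensembl identifiers were not used, because Fbxo5 shares one with Fbxo31 and Fbxo30 one with Fbxw7; symbols were, and the peaks of each lay inside the RefSeq span of its symbol. Spans and sequences came from RefSeq GRCm38.p6, the assembly of mm10; promoter windows were found for 36 of 48 members. Peaks overlap with at least 1 bp on the same strand. Overlap and derivation were tested on simulated data. Software was Python 3.11.15, numpy 2.4.6, pandas 2.3.3, scipy 1.17.1 and matplotlib 3.10.9.

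Members, lists and tests were chosen with earlier results of these data known. Every member listed for expression or methylation is named, except 1 that is counted but not reported here, of the members in peak lists only those with the 5 highest scores per day and those with at least 2 peaks on a single day, and of the other lists up to 4 genes per direction. Further names were picked after their values were seen.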

Additional observations from a re-analysis of the deposited data

How the results depend on the processing

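Counts were recomputed under 43 alternative settings, of which 32 stayed within 1.5 times the count as reported. At an adjusted p under 0.01, lower F-box members numbered 5 and not 9. With a change of at least 2-fold, 12 F-box members were higher and 4 lower, 1 partner was higher and 0 lower, and 10 substrates were lower. With a reciprocal overlap of at least 50%, 44 day 4 peaks were shared and not 67. Within 500 bp of the annotated 3′ end lay 15 peaks at day 4 and 12 at day 0. At a false discovery rate under 0.01, 3 losses remained, and with both limits at 0.01 there were 4 members with an expression and a methylation change. All of these alternatives keep fewer genes, peaks or sites by construction. Leaving out Fbxl12os, an alternative added after the data were seen, gave 25 higher and 9 lower members. No paired analysis was possible because no file has values per library, and for the same reason no replicate could be left out. Library depth is unknown, so an unlisted gene or peak is not shown to be absent.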

Other observations

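Adaptors of other cullin ligases, taken by symbol after the data were seen, were also listed in both directions. The deposited data held 17 Klhl, 4 Kbtbd, 6 Asb, 5 Socs and 11 Dcaf genes, and being listed was itself a way in. Among all genes tested, 27.1% were called higher and 26.4% lower, and of all listed genes 50.6% were higher. The families are small, and their directions were not tested. Of 10 listed Klhl genes, adaptors of Cul3, 7 were higher and 3 lower at day 4, led by Klhl24 (log2 fold change 1.70, SE 0.19), whose human gene is mutated in a skin fragility disorder, among those with a mean normalized count over 100 in the authors' deposited table. All 3 listed Kbtbd genes and all 5 listed Asb genes were higher, the last being adaptors of Cul5. The 3 listed Socs genes, cytokine-signal inhibitors that also use Cul5, were all lower, with Socs2 at -1.09 (SE 0.12) and Socs4 at -0.66 (SE 0.16) in the authors' deposited table. Dcaf genes, adaptors of Cul4, were 4 higher and 3 lower, the largest being Dcaf6 (1.64, SE 0.10) in the authors' deposited table. Of the cullins, Cul7 was higher (1.19, SE 0.13) and Cul2 lower (-0.51, SE 0.11) in the authors' deposited table. Cul7 is the partner of Fbxw8, which had a methylation gain outside any listed peak, as did Fbxo46.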
